A study of Mus musculus with 16 samples.

Results

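RNA of the normal mouse aortic valve was described from the 4 control libraries (CON) of a series of aortic valves. Their levels came from their columns of 1 table of normalised counts. These 4 control valves are 4 of the 15 libraries with a named column, the labels listing 16 samples. CON valves came from mice of the C57BL/6J background described as control mice, replicates 1, 3 and 4 male and replicate 2 female. The other libraries, used only for comparison, came from valves of hypertensive mice (HT, n = 4, with human renin and human angiotensinogen transgenes), hypercholesterolaemic ApoE knockout mice (HC, n = 4) and mice with both (HC/HT, n = 3 here), all on the same background. The promoters of the transgenes and the age of the mice are not given in the sources used here. A sex is given for each library, but not whether a library is 1 mouse or a pool, so spreads and p-values below measure the spread between these libraries.

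The leaflets of the aortic valve are thin sheets of connective tissue. Valve interstitial cells, which resemble fibroblasts, fill them and make a matrix of collagen, proteoglycan and elastic fibres, and a layer of endothelium covers both faces. Resident macrophages and, in mice, melanocytes also live in the leaflets, and at its root the valve adjoins the smooth muscle of the aorta and the heart muscle.

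Levels are given on 2 scales. A "unit" is a gene's share of a library after 18447 gene rows were kept (ribosomal RNA, mitochondrial RNA, small structural RNA and rows named only by a GenBank accession were left out) and each library was scaled to 1000000. The "per-length level" divides units by transcript length and is again scaled to 1000000, so only it compares one gene with another. Values follow the order of CON replicates 1, 2, 3 and 4.

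CON replicate 4 stood apart from the other control libraries. The kept rows took 57.9%, 63.1%, 55.9% and 37.7% of the deposited total, and rows with only a GenBank accession took 32.3%, 29.3%, 36.9% and 54.9%. Its median Spearman correlation across genes with the other CON libraries was 0.938, against 0.961 to 0.963 for the other three. Short transcripts also differed: genes with a transcript under 800 bases deviated from their mean over the 4 valves by a median log2 of 0.56, 0.38, -0.42 and -0.47, and genes of 6000 bases or more by -0.07, -0.06, 0.12 and 0.03. Of 79 ribosomal protein genes, mostly short, 28 were highest in replicate 1 and 51 in replicate 2. Over all 10245 genes with a mean of at least 10 units, replicates 1 to 4 were the highest for 3209, 2069, 2339 and 2628. These numbers are the background for later counts of the highest of the 4 valves. What part transcript length plays in any difference between the valves was not tested. Several of the main counts, shares and rankings are given with and without replicate 4.

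Of the 18447 rows, 12719 (68.9%) reached 1 unit in all 4 CON valves and 13845 were above 0 in all 4. Without replicate 4, 13007 rows reached 1 unit in each of the other 3 valves. Expression was concentrated in few genes. The 10 highest held 10.2 ± 3.57% of the per-length level (mean ± SD, n = 4), the 50 highest 20.2 ± 2.95% and the 100 highest 26.8 ± 2.85%. Without replicate 4, and with genes ranked over the other 3 valves, these shares were 9 ± 1.07%, 19.3 ± 2.21% and 26.2 ± 2.85% (n = 3).

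The highest per-length level in the control valves belonged to Malat1, a nuclear long noncoding RNA, at 18605, 15723, 27671 and 19229. Mgp, the matrix Gla protein that binds calcium and restrains calcification of cartilage and arteries, came next by mean at 16677 ± 8834, with 16710, 29127, 9661 and 11210. Dcn (decorin), a small proteoglycan that binds collagen fibrils, stood at 10914, 16725, 15612 and 14032. Dcn varied far less than Mgp, the SD of log2 units being 0.24 for Dcn and 0.80 for Mgp, and both genes were highest in replicate 2. Other matrix and fibroblast genes among the 25 highest were Bgn (biglycan, 6024 ± 554), Vim (vimentin, the intermediate filament of mesenchymal cells, 6184 ± 1891), Dpt (dermatopontin, 3678 ± 691), Prelp (a leucine-rich proteoglycan that anchors basement membranes, 3551 ± 545) and Igfbp7 (an insulin-like growth factor binding protein, 3252 ± 686). Apoe, the lipoprotein ligand also made by macrophages, was at 3467, 3226, 2595 and 2225. Lyz2 (lysozyme of macrophages) was at 2700 ± 1166, B2m (the light chain of MHC class I) at 10094 ± 5277 and Ifitm3 (an interferon-inducible membrane protein) at 3084 ± 152.

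General cell genes made up most of the rest of the 25: Tmsb4x (actin-binding thymosin beta 4, 4996 ± 1944), Actb (3330 ± 888), Eef1a1 (3373 ± 632), Ftl1 (ferritin light chain, 2906 ± 577), Crip1 (a small LIM protein, 3047 ± 1797), Lars2 (mitochondrial leucyl-tRNA synthetase, 4646 ± 2986) and the ribosomal protein genes Rpl10, Rpl41, Rps27 and Rpl23a (2663 to 3586). Whether reads of ribosomal RNA were counted to Lars2 or to any other kept gene was not tested. In all, 14 of the 50 highest genes encode ribosomal proteins. Hbb-bs and Hba-a2, the globin genes of red blood cells, and Ppbp, a chemokine of platelets, ranked 4, 6 and 23. Their ranks came from replicate 4: over the other 3 valves Hbb-bs ranked 63, Hba-a2 ranked 78 and Ppbp ranked 6791. Leaving out replicate 4 kept 47 of the 50 genes, and the 3 that left were these. The ranking has no sharp edge, since the genes at ranks 25 and 26 had levels of 2663 and 2546 and those at ranks 50 and 51 levels of 1835 and 1815.

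On the annotation of mm10 (GENCODE M21), Mgp lies on chromosome 6 from 136872435 to 136875823. Dcn lies on chromosome 10 from 97479609 to 97518143, close to Lum, from 97565128 to 97572703. Bgn is on chromosome X from 73483602 to 73495933 and Postn on chromosome 3 from 54361109 to 54391037.

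Markers of the valve interstitial cell and fibroblast formed the most abundant cell list in each of the 4 control valves except replicate 4, where the erythroid list was higher. Its 28 genes summed to per-length levels of 49641, 75259, 48329 and 41950, and 26 of the 28 reached 1 unit in every CON valve. Replicate 2 was highest, and 15 of the 26 members with a mean of at least 10 units had their highest value there. Of all 10245 genes with such a mean, 2069 were highest in replicate 2. Postn (periostin, a matricellular protein of valve fibroblasts) stood at 1866, 2812, 3123 and 1626. Gsn (gelsolin, which severs actin filaments) stood at 2847, 3906, 1310 and 1642, and Lum (lumican) at 1329, 2835, 1845 and 1578. Gsn and Mgp were the most variable members with a mean of at least 10 units. Pdgfra and Pdgfrb, the PDGF receptors of mesenchymal cells, were at 111 ± 27.4 and 122 ± 19.6, and Cd34, carried by many fibroblasts, at 386 (307 to 481 over the 4 valves). Clec3b, a fibroblast marker in other tissues, was among the lowest at 3.33, 1.77, 0 and 1.55.

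**Figure D1:**
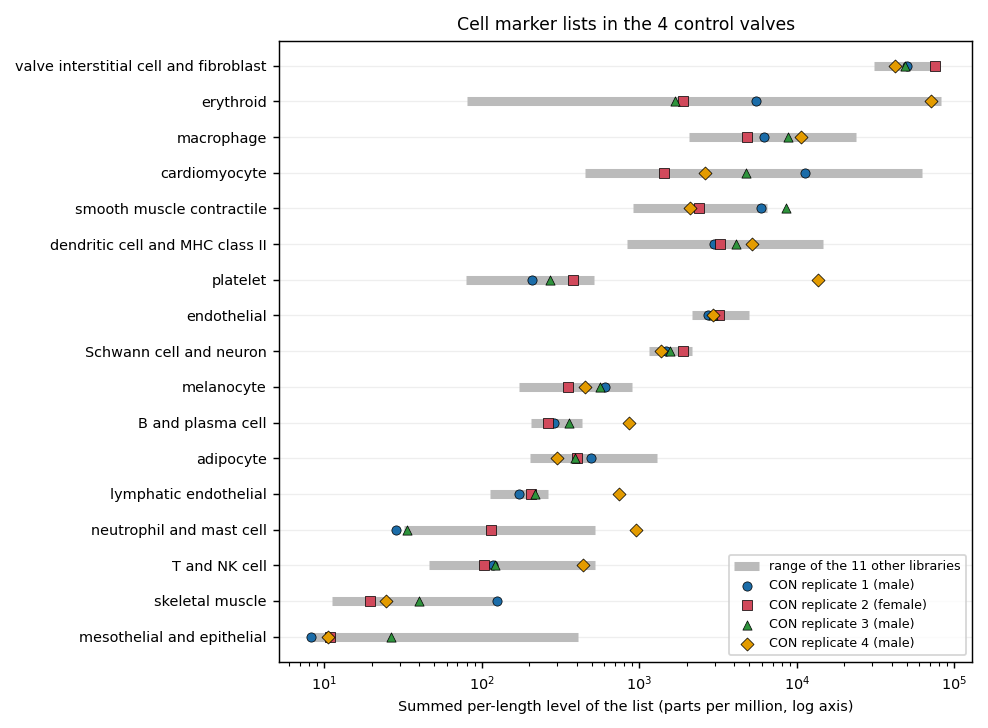
Summed per-length level (log axis) of 17 cell marker lists in each of the 4 control valves (symbols) and the range of the 11 other libraries (grey bars). Endothelial points lie between 2737 and 3193, while replicate 4 stands to the right of the other CON valves for the erythroid (71316), platelet (13536) and B and plasma cell (857) lists.

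Endothelial genes were the steadiest cell list of the control valves. The 24 genes summed to 2737, 3193, 2936 and 2952, a highest over lowest of 1.17, and all 24 reached 1 unit in every valve. Pecam1 (CD31, an adhesion molecule of endothelial junctions) was at 483, 597, 575 and 530, and Cdh5 (VE-cadherin) at 120, 137, 150 and 110. Pecam1 exceeded Cdh5 4.25 ± 0.431 times, above it in all 4 valves. Eng (endoglin, a TGF-beta coreceptor), Emcn (endomucin), Icam2 and Tek (the angiopoietin receptor) had means of 507, 227, 188 and 169. The most variable members with a mean of at least 10 units were Tal1, a blood and endothelial transcription factor, at 29.9, 23.9, 34.1 and 78.1, and Vwf. Vwf (von Willebrand factor, stored in endothelial cells and platelets) stood at 58.3, 68.2, 64.2 and 149, so the first 3 valves lay close together and replicate 4 above them. The platelet list was also highest in replicate 4, and its part in the Vwf level was not tested. Because a valve is a bulk sample, more cells of a type and more RNA per cell cannot be told apart here, for this and every list below.

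Matrix genes took 6.47%, 9.21%, 6.57% and 6.11% of the per-length level of the control valves. These are 197 genes in 9 lists, 1.07% of the rows, and the mean was 7.09 ± 1.43% (7.42 ± 1.56% without replicate 4). Of the 197, 158 reached 1 unit in all 4 valves and 2 (Vtn and Col22a1) were listed at 0 in all 4. Matrix genes numbered 8 among the 50 highest genes and 10 among the 100 highest. Over the 141 matrix genes with a mean of at least 10 units, the median SD of log2 units was 0.34, close to the 0.33 of all 10245 such genes. The female valve, replicate 2, was the highest for 61 of the 141 and for 2069 of the 10245. Replicates 1, 3 and 4 were the highest for 38, 21 and 21 of the 141 and for 3209, 2339 and 2628 of the 10245. With 1 female, sex and valve cannot be told apart.

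Small leucine-rich proteoglycans, which space and bind collagen fibrils, and the adhesive and matricellular glycoproteins were the matrix lists with the highest levels. The proteoglycan list of 17 genes summed to 22772, 32672, 28289 and 25856. Its order was steep: Dcn, Bgn, Prelp and Lum each exceeded the next in all 4 valves, with a Dcn to Bgn ratio of 2.38 ± 0.347. Chad (chondroadherin, best known from cartilage) was at 239, 767, 348 and 578 and differed 3.18-fold in units between its lowest and highest valve. Fmod (fibromodulin), Ecm2 and Ogn (osteoglycin) followed at 419 ± 82, 305 ± 77.8 and 301 ± 106, and their order changed from valve to valve. Aspn (asporin) had a mean of 52.2. Epyc (epiphycan) was the most variable member at 1.3, 8.99, 8.19 and 23.1.

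Mgp made up most of the adhesive and matricellular list, which summed to 27078, 42274, 21517 and 20057. Sparc (osteonectin) followed Dpt and Postn at 1434 ± 263, then Thbs1 (thrombospondin 1) at 829 ± 113, Ecm1 at 529 ± 84.2 and Ccn2 at 453 ± 153. Fn1 (fibronectin) was at 315, 493, 324 and 313. Sparc exceeded Thbs1 in all 4 valves. The tenascins were low, Tnc at 5.41 and Tnxb at 14.1 on average. Ccn3, a matricellular regulator, was second to Spp1 in variation, at 148, 52.9, 272 and 43. Replicates 1 and 3 were high and replicates 2 and 4 low for Ccn3. Spp1 (osteopontin) was at 15.7, 70.5, 6.9 and 10.7, highest in the female valve.

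Fibrillar collagens were far below the proteoglycans per length. Col1a1 and Col1a2, the chains of type I collagen, were at 310, 381, 383 and 438 and at 447, 605, 524 and 452, and Col3a1 (type III collagen) at 298, 484, 564 and 458. The 3 genes overlapped: Col1a2 over Col1a1 was 1.36 ± 0.236, and Col3a1 over Col1a1 was 1.19 ± 0.231 with replicate 1 at 0.963. All 4 valves of Col1a1 lay above all 4 of Col5a2 (134 ± 12.7), which with Col5a1 (87.4 ± 11.3) makes the type V collagen that starts type I fibrils. Col2a1, the collagen of cartilage, was at 0.37, 0.172, 0 and 0.906. Among the other collagens, the chains of the beaded-filament type VI led, with Col6a2 at 196 ± 21.4, Col6a1 at 152 ± 14.7 and Col6a3 at 103 ± 10.1. Col4a1 and Col4a2 of basement membranes followed at 86.4 ± 13.1 and 69.1 ± 14.4. Col18a1, a basement membrane collagen of vessels, was the most variable matrix gene with a mean of at least 10 units, at 42.4, 13.6, 39.2 and 4.55.

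**Figure D2:**
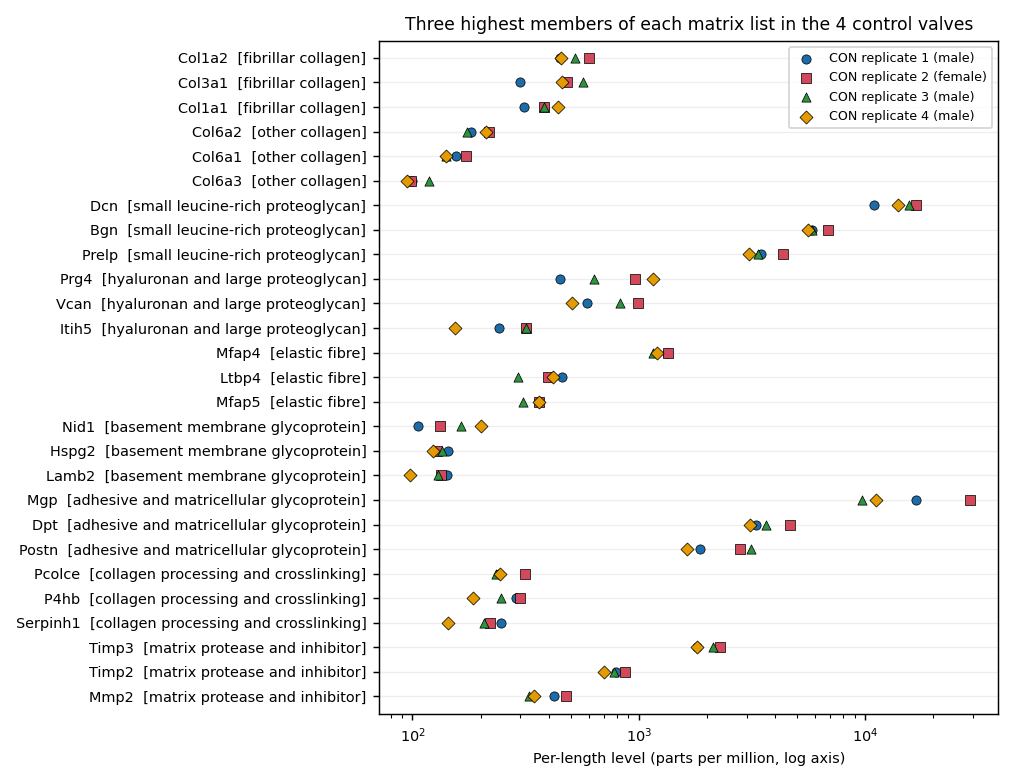
Per-length level (log axis) of the 3 highest members of each of 9 matrix lists, 1 symbol per control valve. Mgp spans 9661 to 29127, Dcn 10914 to 16725, and the type I and III collagen genes lie between 298 and 605.

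Elastic fibre genes were even across the control valves, summing to 3972, 3961, 3390 and 3399, and 19 of 20 reached 1 unit in each. Mfap4, a microfibril-associated glycoprotein, led at 1330, 1350, 1154 and 1209. The latent TGF-beta binding protein Ltbp4, Mfap5 and Fbln1 (fibulin 1) had means of 391, 349 and 296. Fbn1 (fibrillin 1, the core of microfibrils) was at 110, 153, 136 and 95.6. Eln (elastin itself) was at 152, 51.6, 104 and 102, lower in replicate 2 than elsewhere.

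Hyaluronan-binding and large proteoglycans were led by Prg4 (lubricin, a lubricating proteoglycan of joint surfaces) at 450, 962, 636 and 1159 and by Vcan (versican) at 591, 989, 828 and 509. The levels of Prg4 and Vcan overlapped. Acan (aggrecan, the large proteoglycan of cartilage) was low at 0.45, 1.31, 1.26 and 0.839, so that Vcan exceeded it 833 ± 326 times. The link protein Hapln1 was at 147 ± 22.8. Of the hyaluronan synthases, Has2, Has1 and Has3 had means of 22.3, 21.9 and 12.7. Srgn (serglycin, the proteoglycan of blood cell granules) was at 65.7, 79.8, 126 and 568, high in replicate 4 as the blood cell lists were.

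Basement membrane glycoproteins summed to 782, 816, 953 and 824, led by Nid1 (nidogen 1, 151 ± 40.7), Hspg2 (perlecan, 132 ± 8.96) and the laminin genes Lamb2 (125 ± 19.5), Lamc1 (124 ± 19.9) and Lama4 (112 ± 19.6). These neighbours did not differ beyond their spread. Genes for collagen folding and crosslinking were led by Pcolce (which enhances procollagen cleavage, 259 ± 38.1), P4hb (prolyl hydroxylase beta subunit, 254 ± 51.2) and Serpinh1 (the collagen chaperone HSP47, 204 ± 43.5). Loxl2 exceeded Loxl1 among lysyl oxidases by mean (156 and 114), with overlap between valves, and Lox was at 20.4.

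The list of matrix proteases and their inhibitors was led by inhibitors. Timp3, which stays bound to matrix, was at 1813, 2274, 2130 and 1806 and Timp2 at 785 ± 66.6. The gelatinase Mmp2 was at 423, 475, 327 and 344. Timp3 exceeded Timp2, and Timp2 exceeded Mmp2, in all 4 valves. The Timp3 to Mmp2 ratio was 5.21 ± 0.952. Timp3 lies inside Syn3 on chromosome 10, and how overlapping genes were counted was not given in the sources used here, so its level is uncertain to that extent. Other proteases were lower: Mmp3 at 151 ± 26, Mmp14 at 72.4 ± 22.8, and Mmp9, the gelatinase of neutrophils, at 0.298, 0, 0 and 6.56.

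Genes named for cartilage and bone were low apart from Chad and Comp (cartilage oligomeric matrix protein, 115 ± 24.2). Sox9, the chondrocyte transcription factor also used by valve progenitors, was at 65.8, 79.5, 84.7 and 53.3. Runx2, the osteoblast transcription factor, was at 8.26, 4.35, 13.9 and 8.11, Sp7 was above 0 in replicate 2 alone, and Alpl (alkaline phosphatase) was at 6.51 ± 1.7. Of the 21 genes of that list, 13 reached 1 unit in all 4 valves. Calcification inhibitors other than Mgp were Gas6 (a Gla protein, 311 ± 37.5), Ahsg (fetuin A, 166 ± 58), Ank (a pyrophosphate exporter, 65.3 ± 9.52) and Enpp1 (which makes pyrophosphate, 25.4 ± 6). Abcc6 and Fgf23 were listed at 0 in all 4. Sost (sclerostin, a Wnt inhibitor best known from bone) was at 27.4, 0.425, 48.1 and 0, so it was present in replicates 1 and 3 and near or at 0 in replicates 2 and 4.

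Transcription factors known from valve development were broadly present and even between valves. The 69 genes with a row summed to 5374, 6352, 6347 and 6236, 59 reached 1 unit in every valve, and none was listed at 0 in all 4. Tbx20, a T-box factor required for valve formation, was highest at 403, 778, 746 and 733, with replicate 1 below the other three. Id3 (an inhibitor of helix-loop-helix factors), Zeb1 (a repressor of epithelial genes), Meis2 (a homeobox factor) and Nfib (a nuclear factor I) followed at 422 ± 92.7, 283 ± 65.1, 281 ± 65.6 and 280 ± 48.6, and did not differ from one another beyond their spread. Gata4 was at 217 ± 32.3, Gata6 at 108 and Hand2 at 92.2. Nfatc1, the factor of valve endocardium, was at 97.5, 94.9, 95.1 and 118. The flow-responsive factors Klf2 and Klf4 of endothelium were at 212 ± 59.8 and 195 ± 25.4. Nkx2-5, the heart muscle factor, was at 1.24 in replicate 1 and listed at 0 in the others. The most variable member with a mean of at least 10 units was Myocd (myocardin, the coactivator of smooth muscle genes), at 13.1, 3.43, 27.3 and 3.47. Id1, at 244, 326, 158 and 69.8, was lowest in replicate 4.

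**Figure D3:**
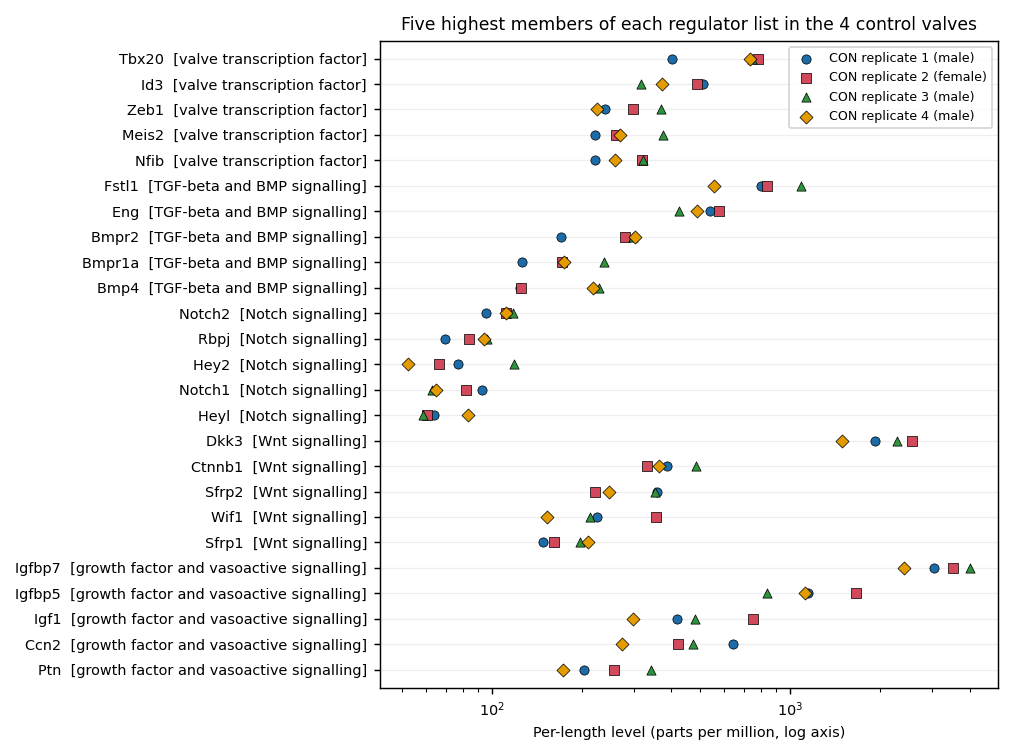
Per-length level (log axis) of the 5 highest members of each of 5 regulator lists, 1 symbol per control valve. Tbx20 lies between 403 and 778, Dkk3 between 1493 and 2555, and the 5 Notch genes between 52.3 and 119.

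For TGF-beta and BMP signalling, which drives matrix production and valve patterning, receptors and ligands were both measured. Among receptors, Bmpr2 was at 262 ± 62.5, Bmpr1a at 177 ± 45.7, Tgfbr2 at 132 ± 20.3, Tgfbr1 at 129 ± 22.8 and Tgfbr3 at 118 ± 7.89. Among ligands, Bmp4 was at 124, 125, 228 and 219, Tgfb3 at 103 ± 23.8, Tgfb2 at 56.5 and Tgfb1 at 34.4. Tgfb3 stood above Tgfb2 and Tgfb1 in every valve, by least in replicate 4 (69.7, 52 and 51.1). Bmp4 was higher in replicates 3 and 4 than in replicates 1 and 2. Fstl1, a secreted follistatin-like protein, was the highest of the list at 821 ± 218. Of the secreted BMP antagonists, Grem1 was listed at 0 in all 4 and Nog in 3 of 4.

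Notch genes, whose loss is known to disturb aortic valve development, were at moderate levels with a total of 616, 674, 722 and 629. The receptors Notch2 and Notch1 were at 109 ± 9.57 and 75.7 ± 14.3, the DNA-binding partner Rbpj at 86.1 ± 12.1, and the targets Hey2, Heyl and Hey1 at 78.8 ± 28.9, 66.8 ± 11.3 and 52.1 ± 23.5. Of the ligands, Jag1 (31.4 ± 3.72) exceeded Dll1 (23.5 ± 6.36) in all 4 valves. Hey1 had 2 levels, 31.4 and 32.1 in replicates 1 and 4 and 71.4 and 73.4 in replicates 2 and 3.

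Dkk3 led the Wnt list. Dkk3, a member of the dickkopf family, was at 1928, 2555, 2288 and 1493, above every other member in all 4 valves. Ctnnb1 (beta-catenin) came next at 391 ± 64.7. Of the secreted antagonists, Sfrp2 was at 295 ± 70.4, Wif1 at 226, 354, 213 and 153, Sfrp1 at 179 ± 28.9 and Frzb at 105 ± 42.1. The highest ligand was Wnt9b, known from endocardium over valve cushions, at 108, 85.3, 119 and 59.6, then Wnt5a at 43.6. The coreceptors Lrp6 and Lrp5 were at 79.2 ± 15.6 and 53.6 ± 6.01.

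Growth factor and vasoactive genes were led by binding proteins of insulin-like growth factors, Igfbp7 above Igfbp5 (1192 ± 343) in all 4 valves. Igf1 itself was at 417, 752, 481 and 298, highest in the female valve. Ptn (pleiotrophin) was at 244 ± 74.7. Of the renin-angiotensin genes on the list, Ace (angiotensin converting enzyme) was at 181, 185, 181 and 91.8, with replicate 4 below the first 3. Agtr1a, the main angiotensin receptor of mouse vessels, was at 1.5, 1.2, 13.7 and 2.81. Ptgis, which makes prostacyclin, was at 303, 248, 145 and 140. Nos3 (endothelial nitric oxide synthase) was at 73.4, 54.3, 64.6 and 56.7.

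Macrophage genes were the most abundant immune list of the control valves and reached 1 unit in all 4 for all 32 members. They summed to 6186, 4793, 8820 and 10589, lowest in the female valve. These sums include Pf4, also on the platelet list, at 193, 299, 247 and 1824. The sum of replicate 4 is therefore raised by a gene that was high there with the platelet genes. The complement genes C1qb, C1qc and C1qa of tissue macrophages were at 515 ± 114, 423 ± 84.2 and 129 ± 20. Cd68, a lysosomal glycoprotein of macrophages, was at 177, 97, 168 and 186. Mrc1 (the mannose receptor) was at 95.6, 91, 234 and 183, and Csf1r (the receptor for macrophage growth factor) at 110 (77 to 141 over the 4 valves). The mean of Lyz2 exceeded that of Lyz1 (407 ± 99.5), but the 2 genes are near-identical copies and their split is uncertain. Among antigen presentation genes, Cd74 (the invariant chain) was at 1045, 970, 1623 and 2616, H2-Aa at 1222 ± 241 and H2-Ab1 at 589 ± 114. Lyve1, a marker of lymphatic endothelium and of some resident macrophages, was at 49.2, 51.9, 89.1 and 147. Of the 7 lymphatic markers with a row, 4 reached 1 unit in all 4 valves. Among them were Prox1 (50.7 ± 9.05), Flt4 (48.5 ± 12.8) and Pdpn (36 ± 7.17), while Tbx1 was listed at 0 in replicates 1 to 3 and Reln in replicate 1.

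Melanocyte genes were present in each control valve, summing to 601, 352, 560 and 449. Dct (a melanin enzyme) was at 258, 131, 259 and 181 and above every other member in all 4 valves. Tyrp1 (tyrosinase-related protein 1) was at 49.2, 28.6, 95.1 and 53, Pmel at 34.8 ± 11.2 and Tyr at 7.58 ± 2.8. Replicate 2 was the lowest for Dct, Tyrp1 and Pmel. The Schwann cell and neuron list rested on Pmp22 (1149 ± 132), which fibroblasts also express. Npy (neuropeptide Y) was at 157, 317, 64.3 and 55.9, highest in replicate 2, and S100b at 108 ± 29.3. Th and Nefm were listed at 0 in all 4, and 12 of the 20 genes with a row reached 1 unit in every valve. Adipocyte genes summed to 494, 402, 390 and 300, mainly Scd1, Lpl, Fabp4 and Car3. Adipoq, the defining adipocyte hormone, was at 2.86 ± 1.62 and Ucp1 was listed at 0. Mesothelial and epithelial markers summed to 8.2, 10.9, 26.3 and 10.6, with 1 of 11 (Cdh1) reaching 1 unit in all 4. Msln and Upk3b were above 0 mainly in replicate 3.

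Genes of contractile smooth muscle differed more between the control valves than any matrix list did. They summed to 5898, 2398, 8473 and 2099, and of 19 members with a mean of at least 10 units, 11 were highest in replicate 3 and 7 in replicate 1. Acta2 (smooth muscle actin, also made by myofibroblasts) stood at 1771, 576, 2601 and 81.1. Myh11 (smooth muscle myosin, more restricted to smooth muscle) stood at 394, 103, 1106 and 6.83, and Cnn1 (calponin) at 143, 34.5, 131 and 0.648. All 3 were lowest in replicate 4. The Myh11 to Acta2 ratio moved too, at 0.223, 0.179, 0.425 and 0.0842. Other members were less affected in replicate 4: Myl9 (a smooth muscle myosin light chain) was at 743, 296, 1200 and 760 and Mylk (its kinase) at 64, 32.8, 108 and 112. Replicate 4 was thus the highest for Mylk, the second highest for Myl9 and the lowest for Acta2, Myh11, Cnn1, Tagln (46.9) and Tpm2 (20.6).

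Cardiomyocyte genes varied together along another order. The 28 genes summed to 11320, 1434, 4767 and 2620, and all 24 members with a mean of at least 10 units were highest in replicate 1. Tnnt2 (cardiac troponin T) was at 2577, 371, 1743 and 792, Myl2 (ventricular myosin light chain) at 1130, 94.3, 296 and 46, and Nppa (atrial natriuretic peptide) at 927, 39.6, 170 and 91.8. Myh6, the adult cardiac myosin, was at 301, 32.7, 148 and 81.6. These 4 genes were above 0 in each valve, and 26 of the 28 reached 1 unit in all 4. The exceptions were Nppb, at 0 in replicate 2, and Smpx, at 0 in replicate 4. Skeletal muscle genes other than Acta1 were low, and Tnnc2 was listed at 0. The labels do not say how much adjoining muscle each dissected valve held, and its part in these levels was not tested.

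The promoters of the contractile and cardiomyocyte genes were searched for the CArG box, the site of serum response factor that many muscle genes carry. The box was searched in the 250 bases upstream of the start in RefSeq (GRCm38.p6). Its pattern was CCWWWWWWGG, where W is A or T, with no mismatch allowed, and reads the same on both strands. It was found in 482 of 32851 windows (1.47%), in 3 of 24 cardiomyocyte genes with a window (12.5%) and in 1 of 18 contractile genes (5.56%). The share over all counts windows, while the list shares count genes with a box in any of their windows. A gene with more than 1 window has more chances, so these shares are not like for like. The 4 windows are shown 5′ to 3′ on the gene's strand with the box in capitals.
Myl9: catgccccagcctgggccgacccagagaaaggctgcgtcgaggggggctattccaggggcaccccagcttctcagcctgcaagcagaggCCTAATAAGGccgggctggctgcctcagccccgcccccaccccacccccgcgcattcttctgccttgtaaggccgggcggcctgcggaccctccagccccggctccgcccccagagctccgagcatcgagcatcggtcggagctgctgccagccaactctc
Actc1: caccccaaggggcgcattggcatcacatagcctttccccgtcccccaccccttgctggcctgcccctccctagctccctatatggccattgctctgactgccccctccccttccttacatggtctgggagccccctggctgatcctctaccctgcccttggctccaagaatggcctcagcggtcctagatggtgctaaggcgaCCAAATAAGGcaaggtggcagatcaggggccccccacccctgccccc
Myl3: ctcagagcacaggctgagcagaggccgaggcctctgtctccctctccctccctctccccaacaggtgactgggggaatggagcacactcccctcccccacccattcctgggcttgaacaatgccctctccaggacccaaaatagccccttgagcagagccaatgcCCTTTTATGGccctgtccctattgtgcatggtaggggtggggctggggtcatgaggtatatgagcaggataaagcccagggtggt
Myl7: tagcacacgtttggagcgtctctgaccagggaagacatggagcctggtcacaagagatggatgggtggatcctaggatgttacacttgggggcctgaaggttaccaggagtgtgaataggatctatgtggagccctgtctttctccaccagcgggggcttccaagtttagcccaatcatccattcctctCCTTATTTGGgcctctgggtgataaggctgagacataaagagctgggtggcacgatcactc
The Myl9 window is chr2:156775214-156775463 on the plus strand and that of Actc1 is chr2:114052876-114053125 on the minus strand. The Myl3 window is chr9:110763428-110763677 on the plus strand and that of Myl7 is chr11:5898783-5899032 on the minus strand. The box starts 161, 47, 85 and 61 bases before the start of Myl9, Actc1, Myl3 and Myl7. Actc1 (cardiac actin) was at 930, 106, 512 and 358, Myl3 (a ventricular light chain) at 518, 46.4, 102 and 52.7, and Myl7 (an atrial light chain) at 537, 64.7, 206 and 242. Myl9 was highest in replicate 3, the other three in replicate 1. A box here is a match of letters, not a measured binding site.

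Blood cell genes set replicate 4 apart. Erythroid genes summed to 5483, 1898, 1689 and 71316, and platelet genes to 208, 378, 269 and 13536. Each of the 6 members with a mean of at least 10 units, in both lists, was highest in replicate 4. Hbb-bs (adult beta globin) was at 2832, 1061, 822 and 45094 and Hba-a2 (alpha globin) at 2344, 741, 772 and 21790; globin genes are near-identical copies, and Hbb-b1, Hbb-b2 and Hba-a1 were not analysed here. Ppbp (a platelet chemokine, on chromosome 5 from 90768518 to 90770063) was at 0.873, 62, 16 and 10791. Gp9 and Gp1ba, subunits of the platelet receptor for von Willebrand factor, were at 1.07, 1.99, 1.31 and 525 and at 2.44, 6.15, 0 and 204. In replicates 1 to 3 the platelet list therefore rested on Pf4 (193, 299 and 247), a chemokine listed here for macrophages as well.

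White blood cell lists were also highest in replicate 4. T and NK cell genes summed to 118, 103, 121 and 437, B and plasma cell genes to 288, 262, 357 and 857, and neutrophil and mast cell genes to 28.4, 115, 33.3 and 947. In replicates 1 and 2 the T and NK cell sum rested largely on Thy1 (71.9 and 62.7), which fibroblasts also express. In replicate 3 Thy1 was the highest member at 46.6, but the other members together were higher. Without Thy1 the sums were 46.5, 40.3, 74.4 and 360. The B cell gene Ms4a1 (CD20) was listed at 0 in replicates 1 to 3 and stood at 86.5 in replicate 4, so in those 3 valves the list rested on Xbp1 (278, 256 and 348), which many secretory cells express. S100a8 and S100a9, calcium-binding proteins of neutrophils, were at 208 and 211 in replicate 4 and at most 2.38 elsewhere. Mpo, Camp and Ltf, which mark neutrophil precursors, were listed at 0 in all 4. The mast cell proteases Cma1 (0.867, 16.9, 0 and 109) and Cpa3 (1.63, 30, 0.797 and 110) were next highest in replicate 2. Mmrn1 (multimerin 1, of platelets and lymphatic endothelium) followed the platelet genes at 0.528, 7.45, 1.81 and 438.

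Most genes varied little between the 4 control valves. Over 10245 genes with a mean of at least 10 units, the SD of log2(units + 1) had a median of 0.33 and a 90th percentile of 0.70. For the same genes the median SD was 0.41 among HT libraries, 0.34 among HC libraries and 0.39 among the 3 with both. The highest valve was at least 2 times the lowest for 3393 genes (33.1%), at least 4 times for 559 (5.46%) and at least 8 times for 183 (1.79%). Without replicate 4 these shares were 18.8%, 1.82% and 0.471%, over 10196 genes, and the median SD was 0.29.

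Among the 50 most variable genes were 5 of the erythroid list, 4 each of the platelet and B and plasma cell lists, 3 of the contractile list and none of the matrix lists. Replicate 4 was the highest valve for 40 of them, replicate 3 for 7, replicate 2 for 2 and replicate 1 for 1. Of all 10245 genes with a mean of at least 10 units, replicate 4 was the highest for 2628. In units, Ppbp (SD 4.99) was at 0.338, 23.8, 5.25 and 3934, and F5 (coagulation factor V) at 3.38, 12.1, 9.11 and 1636. Tubb1 (the beta-tubulin of platelets) was at 0, 1.24, 0 and 250. Others of this pattern among the 20 most variable were Mmrn1, Mpig6b, Slamf1, Treml2, Alox12, Gp9, Cd226, Ly6g6c, Ms4a1, Gp1ba, Gp6 and Slc6a4, with 81 to 660 units in replicate 4. Mpig6b and Ly6g6c overlap on chromosome 17, so their reads may be shared.

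The sex-linked genes among the 20 followed the labels. Xist, the RNA that silences an X chromosome in females, was at 29.1, 5850, 15.9 and 2.60 units, and its antisense partner Tsix at 0, 106, 0.350 and 0, which cannot be told apart from Xist where strand is not counted. Ddx3y and Eif2s3y of the Y chromosome were at 99.5, 0.311, 126 and 108 units and at 77.7, 0, 103 and 61.3. Both patterns match the labelled sex of the 4 valves.

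**Figure D4:**
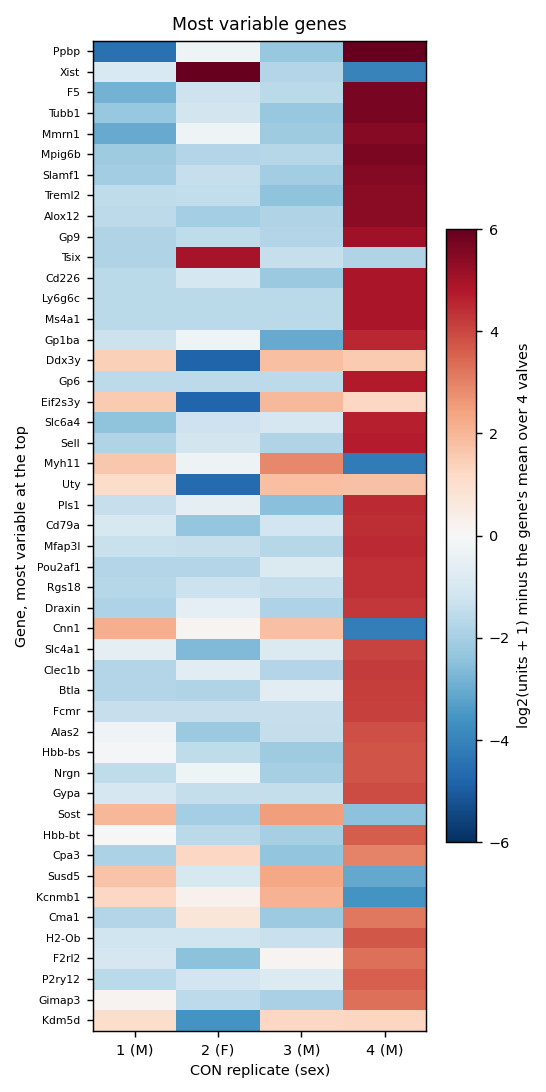
48 of the 50 most variable genes of the control valves, most variable at the top, coloured by log2(units + 1) minus the gene's mean over the 4 valves. Most rows are red in replicate 4 alone, the Y-linked genes are blue in replicate 2, and Myh11, Cnn1, Sost, Susd5 and Kcnmb1 are red in replicates 1 and 3 and blue in replicate 4.

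Without replicate 4 the ranking by variation held mostly other genes, and 9 of the 50 were shared. Xist, Tsix and 4 Y-linked genes (Eif2s3y, Ddx3y, Uty and Kdm5d) came first, then Sost, and 18 of the 50 were cardiomyocyte genes, such as Nppa (287, 12.1 and 44.5 units in replicates 1 to 3). Replicate 1 was the highest of the 3 for 34 of the 50, replicate 3 for 11 and replicate 2 for 5. The heat shock genes Hspa1a (143, 12.6 and 20.3 units) and Hspa1b (71.4, 5.28 and 9.46), near-identical copies, were high in replicate 1 as well. Ptprz1, a receptor phosphatase best known from glia, was at 34.0, 3.11 and 80.0 units, and 4.15 in replicate 4. Ptprz1 and the names of this paragraph outside the earlier lists were chosen after their values were seen.

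**Figure D5:**
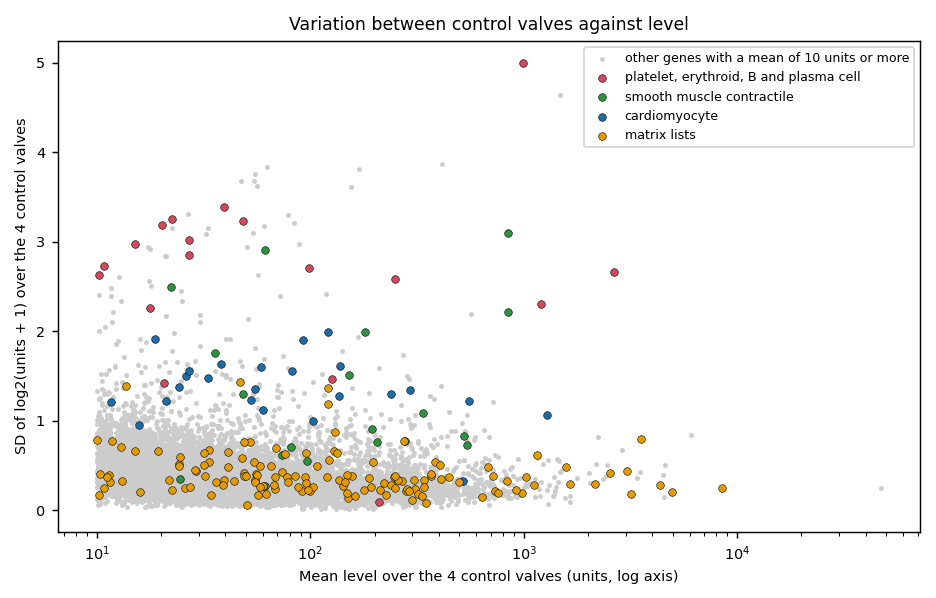
SD of log2(units + 1) over the 4 control valves against the mean level in units (log axis), 1 point per gene with a mean of at least 10 units. Blood genes (red) reach an SD of 4.99, contractile (green) and cardiomyocyte (blue) genes stand mostly above the matrix genes (orange), whose median is 0.34.

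At the other end stood the 10 genes with the least variation and a mean of at least 50 units. Larp1 (a translation regulator) was at 132, 132, 130 and 132 units, Adam10 (a membrane protease that sheds Notch) at 113, 111, 112 and 112, and Git2 at 92.2, 92.5, 91.1 and 91.1. The others of the 10 were Atrn, Dapk1, Elk3, Ppp2ca, Ddr2, Apbb2 and Ttbk2. Among them Ddr2, a collagen receptor, was at 187, 191, 187 and 184 units. The same 10 genes had SDs of 0.10 to 0.56 in the other groups, above their SD of 0.02 or less in CON, where they were chosen for it.

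Immediate early genes, which rise when tissue is handled, were present in all 4 control valves for all 23 members and summed to 2351, 1781, 1777 and 2431. Fos was at 51.8, 27.7, 75.6 and 95.5, Egr1 at 175 ± 30 and Dusp1 at 278 ± 89.7. Cell cycle genes were low, at 259, 258, 380 and 272 in all, of which Pcna took 116 ± 14.1. Mki67, the proliferation marker, was at 21, 26.2, 60.4 and 30.4. Nuclear genes of the respiratory chain summed to 7187, 5268, 4540 and 3703. Of the 30, 28 were highest in replicate 1, against 3209 of all 10245 genes with a mean of at least 10 units. Cardiomyocyte genes and short transcripts were also high in replicate 1, and the part of either in these levels was not tested.

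How the control valve differed from the rest of the series was tested with limma over 14901 genes, as CON minus the unweighted mean of HT, HC and HC/HT with a sex term. With a Benjamini-Hochberg adjusted p under 0.05, 3 genes passed (0.0201% of those tested), 1 higher (0.00671%) and 2 lower (0.0134%) in CON, while 1284 had an unadjusted p under 0.05. Apoe, removed by design in 7 of the 11 other libraries, was at 1747, 1607, 1108 and 1055 units in CON. It was at 1186, 1027, 171 and 848 in HT and at most 20.5 in HC and HC/HT. The log2 difference was 4.87 ± 0.46 (SE), with an adjusted p of 0.00147. The CON valves overlapped HT replicate 1 alone. Abcg1, a cholesterol exporter, was at 18.8, 16.3, 27 and 10.6 units in CON, 16 to 29.9 in HT and 94.7 to 233 in HC and HC/HT (-1.89 ± 0.27, adjusted p 0.00886). Cd5l, a survival factor of macrophages, was at 3.38, 0, 2.45 and 3.63 units in CON, at most 3.48 in HT and 34 to 96.6 in HC and HC/HT (-2.85 ± 0.46, adjusted p 0.0347). For both genes CON overlapped HT and lay below every HC and HC/HT library.

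These calls depended on the fit. Of 28 alternatives Apoe passed in 27 (largest adjusted p 0.277), Abcg1 in 22 (largest 0.297) and Cd5l in 15 (largest 0.5). With the deposited values times 1 common factor, which moved the median of all genes from 0.02 to 0.22, 7 genes passed, 4 higher and 3 lower. With the rows named by a GenBank accession or without a match kept, except the 3 most abundant, 14 passed, 10 higher and 4 lower. Those rows were left out by a choice made after the files were seen. The count was 1 without CON replicate 2, HC replicate 2 or HC/HT replicate 1. It was 5 without CON replicate 4 or HT replicate 1, 6 without HT replicate 4 or HC replicate 4, 7 without HT replicate 2 or HC replicate 1, and 11 without HT replicate 3. The genes with the next smallest p did not pass (each adjusted p 0.0647): Adam8, 4930578G10Rik, Ecm2, Cavin2, Stra6l, Thra and Mmp12. Of these Ecm2 was at 245, 446, 388 and 394 units in CON and 75.3 to 294 in the others. Thra (thyroid hormone receptor alpha) was at 104, 80, 105 and 124 against 30.1 to 83.8, and Mmp12 (the macrophage elastase) at 51.3, 50.9, 47.5 and 52.2 against 51.3 to 880.

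No member of the 36 gene lists passed, and the lists are described by counts only, with the median log2 of all genes tested at 0.02. Over all genes tested, 1284 of 14901 had an unadjusted p under 0.05, the background for the unadjusted counts of the lists. Those counts take genes of either direction, so not all of them follow the direction named for the list. The marker Lyve1, on the macrophage list, was higher in CON (2.84 ± 0.55, limma adjusted p 0.0987). It was at 50.9 to 143 units in CON and 0.776 to 68.9 in the others. In the contractile list 21 of 21 members were higher in CON (median 1.03, 6 with an unadjusted p under 0.05), and 20 of 21 with median-of-ratios scaling. Without replicate 4 the median was 1.49 with 20 of 21 higher. The contractile list summed to 2099 to 8473 in CON (mean 4717) and 1711 to 6496 in HT (mean 4051). It summed to 1127 to 2569 in HC and 906 to 1159 in HC/HT, so HT and HC overlapped CON. In the proteoglycan list 14 of 16 were higher (median 0.59, 4 unadjusted), among valve transcription factors 53 of 64 (median 0.38, 16 unadjusted) and in the Wnt list 22 of 34 (median 0.21, 11 unadjusted). Their summed levels overlapped between CON and the others. Proteoglycan genes summed to 22772 to 32672 in CON and 18176 to 32682 in the others. Valve transcription factors summed to 5374 to 6352 and 4054 to 6867, and Wnt genes to 3305 to 4715 and 2607 to 4581. Cardiomyocyte genes were higher for 25 of 28 (median 0.92, 1 unadjusted), with summed levels of 1434 to 11320 in CON and 449 to 61828 in the others. Lower in CON were 15 of 15 MHC class II and dendritic genes (median -0.40, 2 unadjusted), 19 of 32 macrophage genes (median -0.38, 12 unadjusted) and 15 of 20 proliferation genes (median -0.45, 4 unadjusted). The HT libraries did not share the high macrophage level. The macrophage list summed to 4793 to 10589 in CON and 2055 to 9805 in HT. It summed to 10448 to 23620 in HC and 12587 to 20773 in HC/HT. The highest CON sum, in replicate 4, includes Pf4 at 1824. The MHC class II and dendritic list summed to 2971 to 5222 in CON, 836 to 6555 in HT, 4638 to 9962 in HC and 3684 to 14633 in HC/HT. On the common-factor scale 13 of 15 MHC class II and dendritic genes and 17 of 32 macrophage genes were lower. On that scale the median of all genes was 0.22. Above that median lay 0 of 15 MHC class II and dendritic genes and 13 of 32 macrophage genes, the same counts as on the main scale. The platelet and B cell medians turned with replicate 4: they were 0.58 and 0.32 with it and -0.59 and -0.36 without it.

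The summed level of 1 of the 36 lists did not overlap between CON and the others. Elastic fibre genes summed to 3390 to 3972 in CON and 2268 to 3356 in the 11 other libraries, with 13 of 20 members higher in CON and a median of 0.12. Over single genes, 28 of 14901 (0.188%) had CON libraries that did not overlap the others. Among the list members tested, 5 of 684 (0.731%) were of this kind, and none passed the adjusted test. Nfia (a nuclear factor I, 595, 704, 597 and 887 units in CON against at most 581), Snai2 (a repressor of epithelial genes, 38.6, 45.6, 36.1 and 42 against at most 35.5) and Kitl (stem cell factor, 113, 124, 151 and 126 against at most 108) lay above the others. Pdgfb (a platelet-derived growth factor chain, 11.5, 8.38, 11 and 8.05 against at least 12) and Ccn4 (2.71, 2.79, 5.08 and 3.11 against at least 5.2) lay below. These 5 were named after their values were seen.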

How the data were processed

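RNA from aortic valves was amplified from 1 ng with the Nugen Ovation system and made into libraries with a KAPA kit, per the labels' protocols. Bowtie 1.0.1, SAMtools 0.1.9, FastQC 0.11.2, edgeR and the build mm10 are named in the submitters' processing notes; the sources used here do not give how the counts were normalised. The authors deposited normalised counts rounded to whole numbers, which are treated as a score per gene rather than as counts, so no count test, counting interval or floor was computed and a 0 is only listed as 0. The deposited totals of the CON columns were 10208389, 10209825, 10208868 and 10208887. Sequencing depth is unknown, and the smallest value above 0 equals 0.311 to 0.519 units. The 1 column without a sample name was not used.

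Of 20992 rows, 1 ribosomal RNA row, 4 mitochondrial rows, 129 small structural RNA rows, 2108 rows named by a GenBank accession and 303 rows without a match were left out. The planned filter named ribosomal, mitochondrial and small structural RNA; leaving out the GenBank-named and unmatched rows was decided after the files were seen. Each library was scaled to 1000000 units. Per-length levels used the longest transcript of GENCODE M21 (GRCm38). Groups were compared with limma 3.58.1 in R 4.3.3 on log2(units + 1), two-sided, with trend and robust options, over the genes that reached 1 unit in 4 or more of the 15 libraries, in 1 fit. Tables used Python 3.11.15 with pandas 2.3.3. Fits were tested on simulated data.

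Genes named are the 10 markers, the 25 highest by level, the 20 most and 10 least variable, and in each of 36 lists up to 5 highest and 2 most variable members; any other list member named was chosen after its values were seen. The members and lists were chosen with earlier results of these data known. Some genes these rules select are not reported here. Alternatives covered scaling, pseudocount, filter, length, sex term, array weights, replicate block, males alone and each library left out.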

Additional observations from a re-analysis of the deposited data

Results flagged for a closer look

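Among 46 values tested over the 4 control valves (36 list sums and 10 marker genes), 10 had 1 valve far from the other 3. The cut is one that independent, normally distributed values pass about 1 in 20 times. These values share genes and valves, and most of the 10 fall on replicate 4, so that rate does not apply to their number. In replicate 4 the summed per-length level of lymphatic endothelial genes was 741 (172 to 216 in the other 3). Mmrn1, also a platelet gene, made up 438 of it, and without Mmrn1 the sums were 171, 197, 214 and 303, no longer far enough apart to be singled out. Also in replicate 4, the level of T and NK cell genes was 437 (103 to 121), that of B and plasma cell genes 857 (262 to 357) and that of neutrophil and mast cell genes 947 (28.4 to 115). Erythroid genes were at 71316 there (1689 to 5483) and platelet genes at 13536 (208 to 378). The marker Vwf was at 444 units in replicate 4 (172 to 213). Replicate 3 was apart for mesothelial and epithelial genes, at 26.3 (8.2 to 10.9), and for proliferation genes, at 380 (258 to 272). Replicate 1 was apart for valve transcription factors, at 5374 (6236 to 6352).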

How the results depend on the processing

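Without division by length, 25 of the 50 highest genes, 5 of the 10 highest lists and 17 of 36 list sums kept their place or level. Leaving out 1 control valve kept 46 to 48 of the 50 genes and 9 to 10 of the 10 lists. Of the 50 most variable genes, 23 stayed with a mean of at least 50 units, and 9 to 44 stayed when 1 valve was left out, 9 being the value without replicate 4. The comparison with the other groups called 3 genes. It called 26 at an adjusted p under 0.1, 7 with 1 common factor, 30 without the sex term, 276 with array weights, 0 in males alone (833 with an unadjusted p under 0.05 in limma), 2 with a pseudocount of 0.25 and 1 to 11 with 1 library left out. With rows named by a GenBank accession kept, an alternative chosen after seeing the data, it called 14. The cause of these changes was not tested. With a replicate block it called 1 gene. Libraries of different groups were also correlated after each gene's group mean was taken off. The 21 pairs with the same number had correlations of -0.094 to 0.27 (median 0.062, against -0.055 for pairs with different numbers). Not every pair exceeded 0.1, so the numbers were not taken to pair the libraries, and whether they mark a shared batch is not known. Low values are coarse: the smallest deposited above 0 was 2 in each named library except HT replicate 2, where it was 1.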
